A study of Mus musculus with 6 samples.

Results

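The genes described here build the long-range framework of the sarcomere, the contractile unit of striated muscle. They are the giant scaffold genes *Ttn* and *Neb*, the M-band genes *Obsl1*, *Myom1*, *Myom2* and *Myom3*, and the genes *Lmod2*, *Lmod3* and *Tmod4*, whose products act at the pointed end of the thin filament. These 9 genes were chosen by name from the 56262 genes of the count table, not by a rule on their measured values. Earlier results of these data were known when they were chosen. Bulk RNA-seq was available from leg muscle of mouse fetuses at embryonic day 18.5, with 3 wild-type (WT) and 3 *SYISL* knockout (KO) libraries. *SYISL* is a long noncoding RNA whose gene overlaps an intron of *Synpo2*. WT fetuses came from WT parents and KO fetuses from KO parents, so the genotype of the fetus, that of the dam and the litter cannot be told apart. The number of fetuses behind each library and the design of the deletion are not given in the sources used here.

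Titin is a molecular spring that spans from the Z-disc to the M-band, and nebulin lies along the thin filament and stabilizes it. Myomesins and obscurin-like 1 cross-link thick filaments and titin in the M-band at the center of the sarcomere. Leiomodins nucleate actin and lengthen thin filaments from their pointed ends, which tropomodulins cap. Loss of nebulin or of leiomodin 3 in patients causes nemaline myopathy, a weakness of skeletal muscle.

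The libraries held 82054811 to 102233181 counts. Of 8 skeletal muscle marker genes, 6 were called higher in KO and 0 lower (*Myog*, of differentiating myoblasts, and embryonic *Myh3* were not called and are named after their values were seen). Their summed level was 17410 to 19620 CPM (counts scaled to a common library total with TMM factors) in WT and 37660 to 46560 CPM in KO. *Myog* was lower in every KO library, at 140 to 150 CPM in WT and 123 to 128 CPM in KO (log2 -0.22, under the fold threshold). *Myh3* overlapped between the genotypes (log2 -0.040). Markers of other tissues moved with genotype as well. All 6 epidermal markers were called lower in KO, with a sum of 15330 to 22930 CPM in WT against 667 to 774 CPM in KO. All 4 red blood cell markers were called lower, with 1819 to 2557 CPM in WT against 253 to 322 CPM in KO. All 3 fat markers were called higher, with 6.20 to 20.0 CPM in WT and 90.0 to 94.1 CPM in KO. Of the other lists, smooth muscle had 1 of 4 markers called higher, macrophages 2 of 4, bone 1 of 3 and glia 1 of 3, cartilage had 2 of 3 called lower, and fibroblast and endothelial lists had 0 of 4 called. Over all genes tested, 8.31% were called higher and 8.39% lower. The part of these tissues in the results on sarcomere genes was not tested, and in bulk tissue more muscle cells and more RNA per muscle cell cannot be told apart. Of 4 cardiac markers 1 was called higher and 1 lower, the atrial light chain *Myl7* at 2.59 to 3.03 CPM in WT and 0.0747 to 0.105 CPM in KO (log2 -4.91) and the cardiac myosin *Myh6* at 5.77 to 6.40 and 11.2 to 13.1 CPM (log2 0.99). The others, *Nppa* and *Nkx2-5*, were too low to be tested, at or below 0.0735 CPM in every library. No entry of the count table could be matched to *SYISL* by symbol, and its loss was not checked.

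The sequence before the transcription start was examined as a description only. Windows of 200 bases before the start were taken from RefSeq promoters on GRCm38.p6, which matched 6 of the 9 genes by symbol, and no window was used for *Neb*, *Myom2* and *Lmod3*. Sequences are written 5′ to 3′ in lower case, with capitals for matches to the E-box CANNTG, to the motif of MEF2 factors and to the CArG box of serum response factor.
Ttn (chr2:76982548-76982747, minus strand): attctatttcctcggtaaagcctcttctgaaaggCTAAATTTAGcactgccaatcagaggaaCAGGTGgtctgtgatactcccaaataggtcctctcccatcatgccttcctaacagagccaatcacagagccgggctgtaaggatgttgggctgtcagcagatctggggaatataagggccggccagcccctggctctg
Myom3 (chr4:135759515-135759714, plus strand): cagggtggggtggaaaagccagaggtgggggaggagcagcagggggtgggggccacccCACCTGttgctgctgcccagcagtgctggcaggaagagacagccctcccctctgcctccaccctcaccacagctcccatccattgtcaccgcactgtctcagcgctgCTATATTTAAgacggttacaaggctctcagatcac
Myom1 (chr17:71019357-71019556, plus strand): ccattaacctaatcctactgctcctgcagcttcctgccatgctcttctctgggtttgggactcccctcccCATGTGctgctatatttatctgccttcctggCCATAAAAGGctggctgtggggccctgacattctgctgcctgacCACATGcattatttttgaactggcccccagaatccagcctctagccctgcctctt
Lmod2 (chr6:24597571-24597770, plus strand): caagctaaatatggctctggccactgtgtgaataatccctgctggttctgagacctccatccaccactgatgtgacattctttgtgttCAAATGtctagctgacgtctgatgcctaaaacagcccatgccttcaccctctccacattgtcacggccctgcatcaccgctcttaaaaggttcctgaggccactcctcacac
Tmod4 (chr3:95124314-95124513, plus strand): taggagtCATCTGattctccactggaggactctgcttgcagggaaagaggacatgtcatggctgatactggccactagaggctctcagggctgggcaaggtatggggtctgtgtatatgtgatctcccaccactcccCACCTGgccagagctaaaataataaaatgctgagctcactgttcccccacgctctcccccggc
Obsl1 (chr1:75506453-75506652, minus strand): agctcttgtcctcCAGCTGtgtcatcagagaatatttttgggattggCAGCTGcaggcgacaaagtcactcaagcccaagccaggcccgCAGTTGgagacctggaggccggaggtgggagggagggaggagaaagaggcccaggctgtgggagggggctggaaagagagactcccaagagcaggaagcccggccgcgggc

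A MEF2 motif was present in the windows of *Ttn*, with its first base 166 bases before the start, and of *Myom3*, 35 bases before the start. Of all 32851 promoter windows of this length, 2.29% held such a match on either strand. *Myom1* had a CArG box 99 bases before the start, against 1.18% of all windows, and its window belongs to a start inside the gene as GENCODE annotates it. The windows of *Lmod2* and *Tmod4* also run past the gene start in that annotation, which is at 24597762 and 95124476. The E-box CANNTG was found in 6 of 6 windows, but also in 58.2% of all windows. Its form CAGCTG, which CANNTG includes, occurred only in *Obsl1* among these 6 (187 and 153 bases before the start), against 10.9% of all windows. None of these 6 windows held CATTCC, the core of the MCAT element, which 10.1% of all windows held. These matches are letters in a window, and binding was not measured.

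Differences between KO and WT were tested with edgeR's quasi-likelihood test over 22071 genes. To be called, a gene needed an adjusted p-value (Benjamini-Hochberg) below 0.05 together with a change of more than 1.5-fold. By this rule 6 of the 9 genes (*Ttn*, *Neb*, *Myom1*, *Myom2*, *Lmod2* and *Tmod4*) were called higher in KO, where 8.31% of all genes tested were called higher. None of the 9 was called lower, where 8.39% of all genes were. In 8 of the 9 genes every KO library lay above every WT library, a pattern that 27.3% of all genes tested showed. The exception was *Obsl1*. The median log2 fold change of the 9 genes was 0.89, beside -0.0041 for all genes tested.

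**Figure D1:**
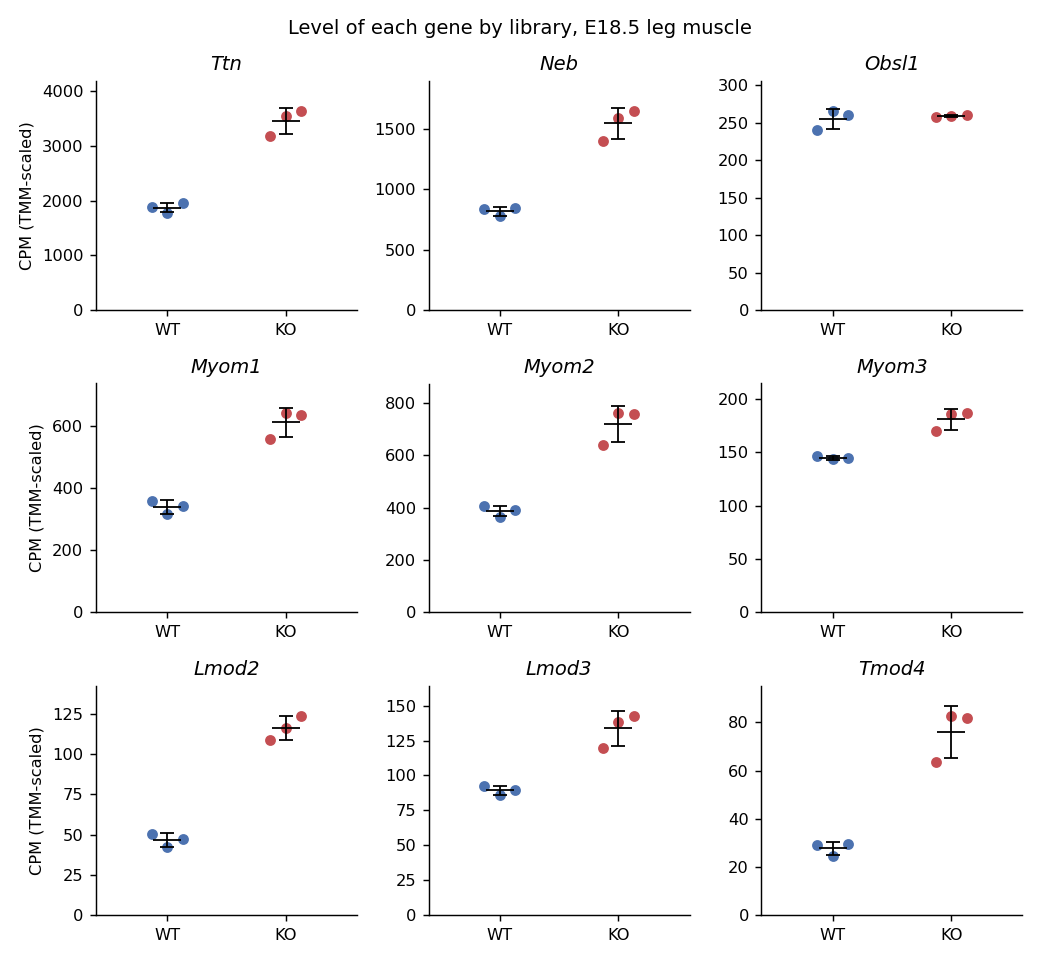
Level of each of the 9 genes in CPM (vertical axes, from 0, TMM-scaled) in 3 WT libraries (blue) and 3 KO libraries (red), with the mean (bar) and SD (whiskers). The points of the genotypes are apart for every gene except *Obsl1*, whose WT libraries at 241 to 266 CPM enclose its KO libraries at 258 to 261 CPM.

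*Ttn* (ENSMUSG00000051747.15) spans bases 76703980 to 76982547 of chromosome 2 (mm10, minus strand) and has 116825 bases of exon. It received 178809, 146895 and 205592 counts in the WT libraries and 298220, 337719 and 354329 in the KO libraries, or 0.179% to 0.201% and 0.319% to 0.351% of all counts. After scaling these were 1889, 1778 and 1948 CPM in WT and 3182, 3544 and 3642 CPM in KO. The lowest KO library thus stood well above the highest WT library. *Ttn* rose 1.85-fold (log2 fold change 0.88, standard error 0.073, adjusted p = 1.04e-05). *Neb* (ENSMUSG00000026950.18, chromosome 2, 52136647 to 52378474, minus strand, 26582 bases of exon) was at 838, 775 and 842 CPM in the WT libraries and reached 1396, 1585 and 1646 CPM in KO. It rose 1.89-fold, by 0.91 on the log2 scale (standard error 0.073, adjusted p = 8.36e-06), again without overlap between the genotypes. The antisense gene *Gm13522* shares 45 exon bases with *Neb* and held 5 to 20 counts per library.

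Per kilobase of exon, the log2 ratio of *Neb* to *Ttn* was 0.96, 0.94 and 0.93 in WT and 0.95, 0.98 and 0.99 in KO, and these ranges overlapped. The difference of 0.029 did not pass the test (exact permutation test, two-sided, p = 0.2, where 3 against 3 allow no less than 0.1). Of the 288 genes with over 16 kb of exon and a mean of at least 5 CPM, 5.56% were called higher, with a median log2 fold change of 0.023. With an offset for exon length the log2 fold change of *Ttn* was 0.72, and it was still called.

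*Myom1* and *Myom2* encode myomesin 1, present in all striated muscle, and M-protein, typical of fast fibers. *Myom1* (ENSMUSG00000024049.15, chromosome 17, 71002633 to 71126856, plus strand) was measured at 359, 317 and 341 CPM in WT and at 557, 639 and 634 CPM in KO. It was 1.80-fold higher in KO, a log2 value of 0.85 (standard error 0.070, adjusted p = 1.01e-05). Of its 10459 exon bases, 207 are shared with *Myl12a* (11754 to 17331 counts) on the opposite strand, and reads of these bases cannot be assigned because the strand setting of the counting is not stated. *Myom2* (ENSMUSG00000031461.4, chromosome 8, 15057653 to 15133541, plus strand) was at 405, 365 and 392 CPM in WT and at 640, 760 and 759 CPM in KO. Its rise was 1.86-fold, or 0.89 on the log2 scale (standard error 0.075, adjusted p = 1.22e-05). For either gene all KO libraries exceeded all WT libraries.

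*Myom3* (ENSMUSG00000037139.15, chromosome 4, 135759715 to 135815564, plus strand), the third myomesin, was nearly constant among WT libraries at 147, 143 and 144 CPM and reached 170, 186 and 186 CPM in KO. The genotypes did not overlap and the adjusted p-value was 4.19e-04, but the change of 1.25-fold (log2 0.32, standard error 0.046) lay below the fold threshold, so *Myom3* was not called. *Obsl1* (ENSMUSG00000026211.17, chromosome 1, 75479310 to 75506452, minus strand), which encodes obscurin-like 1, had 241, 266 and 260 CPM in WT and 258, 259 and 261 CPM in KO. Its KO libraries lay within the range of its WT libraries. The log2 fold change of 0.020 had a 95% interval of -0.087 to 0.13 (adjusted p = 0.763), which does not reach the 1.5-fold threshold on either side. The sign of this value changed with the scaling, to -0.048 with library size alone, and without WT replicate 1, to -0.022. *Tmem198* lies within the *Obsl1* locus on the opposite strand, shares 0 exon bases with it and held 282 to 330 counts.

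At the pointed end, *Lmod2* and *Tmod4* had the largest fold changes of the 9 genes. *Lmod2* (ENSMUSG00000029683.7, chromosome 6, 24597762 to 24605414, plus strand), a leiomodin best known from the heart, was at 50.7, 42.3 and 47.6 CPM in WT and at 109, 117 and 124 CPM in KO. It rose 2.49-fold (log2 1.32, standard error 0.070, adjusted p = 6.35e-07). *Tmod4* (ENSMUSG00000005628.12, chromosome 3, 95124476 to 95129209, plus strand), the tropomodulin of skeletal muscle, was at 29.0, 24.6 and 29.3 CPM in WT and at 63.7, 82.7 and 81.7 CPM in KO. It rose 2.75-fold (log2 1.46, standard error 0.103, adjusted p = 3.84e-06). The groups were far apart for these genes, with the lowest KO library of *Tmod4* more than 2-fold above its highest WT library. *Lmod3* (ENSMUSG00000044086.8, chromosome 6, 97238534 to 97252759, minus strand), the leiomodin of skeletal muscle, was at 92.4, 85.8 and 89.8 CPM in WT and at 120, 139 and 143 CPM in KO. Its KO libraries were all higher, and its difference of 0.58 on the log2 scale (standard error 0.065, adjusted p = 7.71e-05) corresponded to 1.496-fold, just short of the threshold. It was called with upper-quartile factors (0.65), with the length offset (0.69), with Y-linked counts as a covariate (0.62), without WT replicate 1 (0.60) and without KO replicate 1 (0.66).

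**Figure D2:**
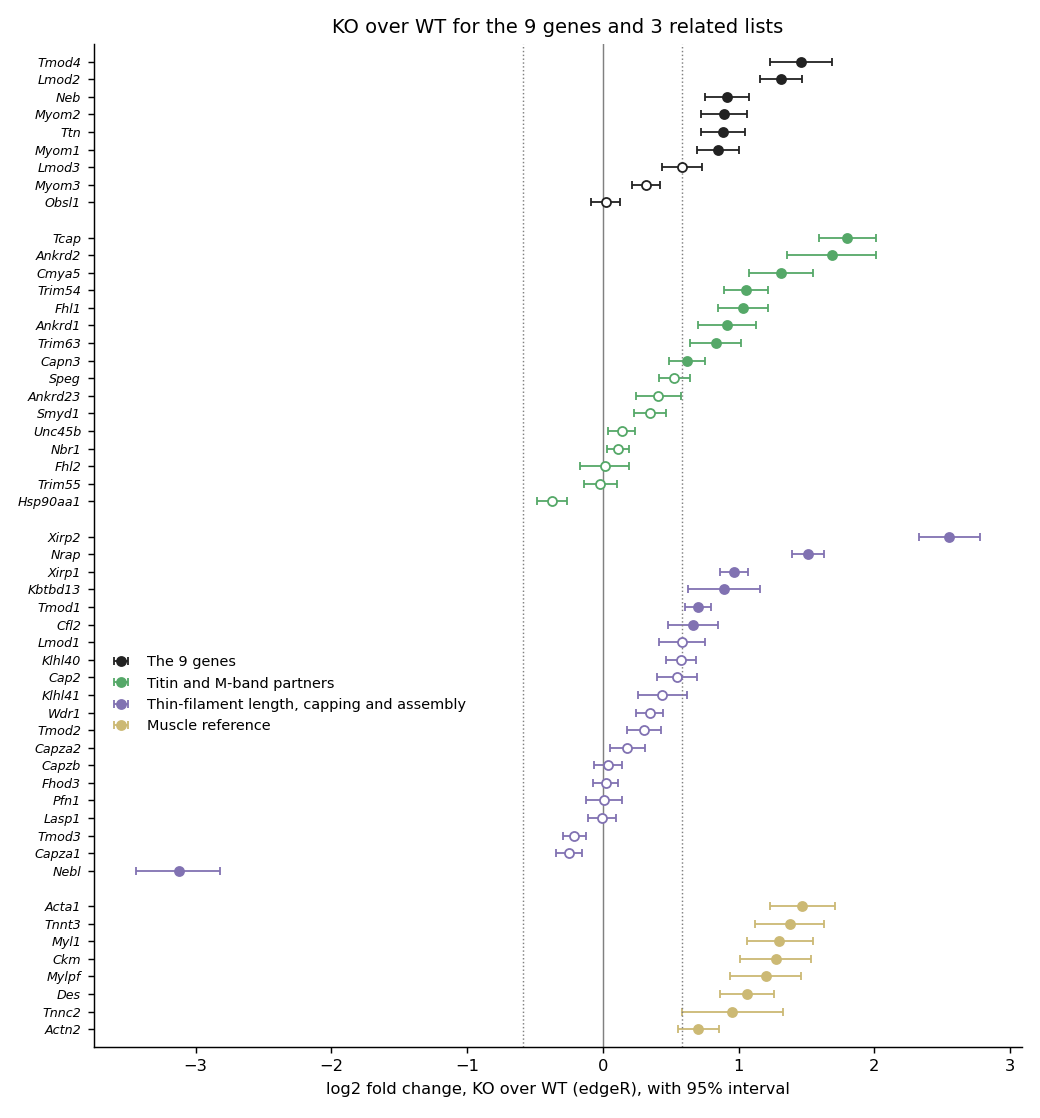
Log2 fold change of KO over WT from edgeR (horizontal axis) with its 95% interval for the 9 genes (black), titin and M-band partners (green), genes of thin-filament length, capping and assembly (purple) and muscle reference genes (yellow), where filled points were called and dotted lines mark a fold change of 1.5. The 9 genes run from 0.02 for *Obsl1* to 1.46 for *Tmod4*, and the reference genes from 0.70 for *Actn2* to 1.47 for *Acta1*.

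The replicates had a shared order. WT replicate 2 was the lowest WT library for 8 of the 9 genes, and KO replicate 1 the lowest KO library for 9 of 9. This order was not particular to the 9 genes. The muscle genes *Des*, *Actn2*, *Acta1*, *Tnnt3*, *Myl1*, *Mylpf* and *Ckm* had the same lowest libraries, but *Tnnc2* did not. The share of all genes with this order was not counted. WT replicate 2 and KO replicate 1 were also the libraries almost without counts on 4 Y-linked genes, at 0.0244 and 0.0749 CPM of total counts, against 61.8 to 172 CPM in the other 4. Between these 2 libraries the log2 difference was 0.84 for *Ttn*, 0.85 for *Neb*, 1.37 for *Lmod2* and 1.37 for *Tmod4*. Between the means of the other libraries it was 0.91, 0.94, 1.29 and 1.5 in the same order. With Y-linked counts as a covariate, the log2 fold change was 0.92 for *Ttn*, 0.95 for *Neb*, 1.38 for *Lmod2* and 1.54 for *Tmod4*, so these 4 genes were still called.

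Within a library, the mix of related genes was compared, which does not depend on the scaling between libraries. The mix can still depend on the tissues in a library, and their part was not tested. Shares were taken from counts per kilobase of exon. *Myom2* made up 43.8%, 43.3% and 44.0% of the 3 myomesin genes in WT and 47.1%, 48.3% and 48.4% in KO. *Myom3* had 23.3%, 24.9% and 23.7% in WT and 18.3%, 17.3% and 17.4% in KO. Every KO library thus had a higher share of *Myom2* and a lower share of *Myom3* than every WT library, by 4.22 and 6.29 percentage points on average. *Lmod3* made up 63.0% ± 1.28 of the pair *Lmod2* and *Lmod3* in WT and 50.5% ± 1.0 in KO (SD, n = 3 each), and the genotypes did not overlap.

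*Tmod4* took 32.0%, 28.9% and 31.8% of the 4 tropomodulin genes in WT and 43.1%, 49.9% and 48.6% in KO, without overlap. Of its paralogues, *Tmod1*, which caps thin filaments in muscle and red blood cells, rose from 85.8 to 92.2 CPM in WT to 140 to 148 CPM in KO (log2 0.70, adjusted p = 1.48e-06). The widely expressed *Tmod3* had 114 to 120 CPM in WT and 98.7 to 103 CPM in KO (log2 -0.21), and *Tmod2*, known from neurons, had 33.9 to 37.7 and 41.0 to 46.0 CPM (log2 0.30). Neither of these was called. For each of these 4 shares the exact permutation test, two-sided, gave p = 0.1, the smallest that 3 against 3 allow, and 0.117 after adjustment over 7 tests.

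**Figure D3:**
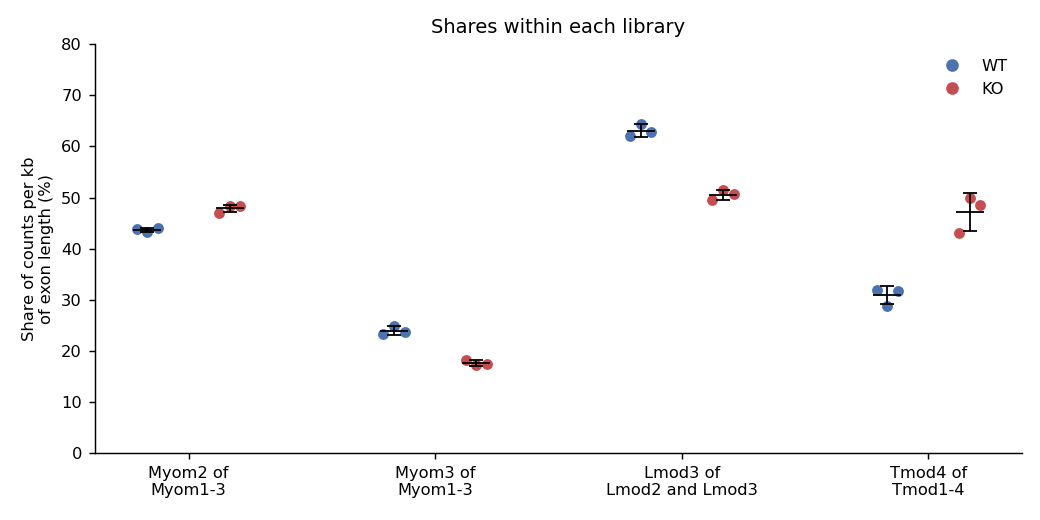
Share of counts per kilobase of exon within each library, in percent (vertical axis), for *Myom2* and *Myom3* among the 3 myomesin genes, *Lmod3* among *Lmod2* and *Lmod3*, and *Tmod4* among the 4 tropomodulin genes, with 3 WT (blue) and 3 KO (red) libraries, the mean (bar) and SD (whiskers). *Lmod3* shows 61.9% to 64.4% in WT and 49.5% to 51.5% in KO, and *Tmod4* 28.9% to 32.0% and 43.1% to 49.9%.

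Compared per length, *Myom2* was the most abundant of the 9 genes in WT (43.8 ± 2.27 CPM per kb, SD, n = 3) and *Ttn* the least (16.02 ± 0.739 CPM per kb). The exon length of *Ttn* joins all annotated isoforms, so its level per kilobase is a lower estimate. In WT the order was *Myom2*, *Lmod3*, *Myom1*, *Neb*, *Obsl1*, *Myom3*, *Lmod2*, *Tmod4* and *Ttn*. The ranges of neighbors overlapped for *Myom2* and *Lmod3*, for *Myom1*, *Neb* and *Obsl1*, for *Myom3* and *Lmod2*, and for *Tmod4* and *Ttn*. In KO *Myom2* again led, at 81.3 ± 7.78 CPM per kb. *Lmod3*, *Lmod2*, *Myom1* and *Neb* followed between 58.0 and 60.4 CPM per kb, each overlapping the next. *Tmod4* stood alone at 44.3 ± 6.24 CPM per kb, and *Obsl1*, *Myom3* and *Ttn* overlapped at 29.6 to 30.6 CPM per kb. *Lmod2* moved from place 7 to 3 and *Obsl1* from 5 to 7.

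The 9 genes were also set against a chosen reference of 8 muscle genes (*Des*, *Actn2*, *Acta1*, *Tnnt3*, *Tnnc2*, *Myl1*, *Mylpf* and *Ckm*). In KO 8 of 8 were called higher, against 8.31% of all genes tested, with a median log2 fold change of 1.24. *Des*, *Acta1*, *Tnnt3*, *Mylpf* and *Ckm* are also among the skeletal muscle markers above. The reference ran from 0.70 for *Actn2* to 1.47 for *Acta1*. *Ttn* (0.88), *Neb* (0.91), *Myom1* (0.85), *Myom2* (0.89), *Lmod2* and *Tmod4* had larger values than *Actn2*, and *Lmod3*, *Myom3* and *Obsl1* smaller ones. The direction relative to a reference thus depends on the genes chosen for it. Relative to the mean of the 8 reference genes in the same library, the mean log2 level of the 9 genes was -1.56, -1.58 and -1.61 in WT and -1.86, -2.01 and -1.93 in KO. All KO libraries were lower, by 0.35 on average (exact permutation test, two-sided, p = 0.1, the smallest possible, adjusted 0.117). The size of this difference depended on the summary. With medians in place of means it was -1.28, and the gene with the median level among the 9 was *Obsl1* in every library. The median log2 fold change was 1.24 for the reference and -0.0041 for all genes tested, so an unchanged gene falls relative to the reference. *Obsl1*, with a log2 fold change of 0.020, is such a gene. Gene by gene, the difference was -0.27 for *Ttn*, -0.24 for *Neb*, -0.30 for *Myom1*, -0.26 for *Myom2*, -0.57 for *Lmod3*, -0.83 for *Myom3* and -1.13 for *Obsl1*. For each of these the genotypes did not overlap. Any gene that rises less than the reference falls in this way, and how many of all genes tested do so was not counted. *Lmod2* (0.16) overlapped between the genotypes. *Tmod4* was 0.30 higher in KO, also without overlap. *Tnnc2* was counted at only 0.592 to 1.42 CPM, and without it the difference of the mean was -0.39 (chosen after seeing the data).

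**Figure D4:**
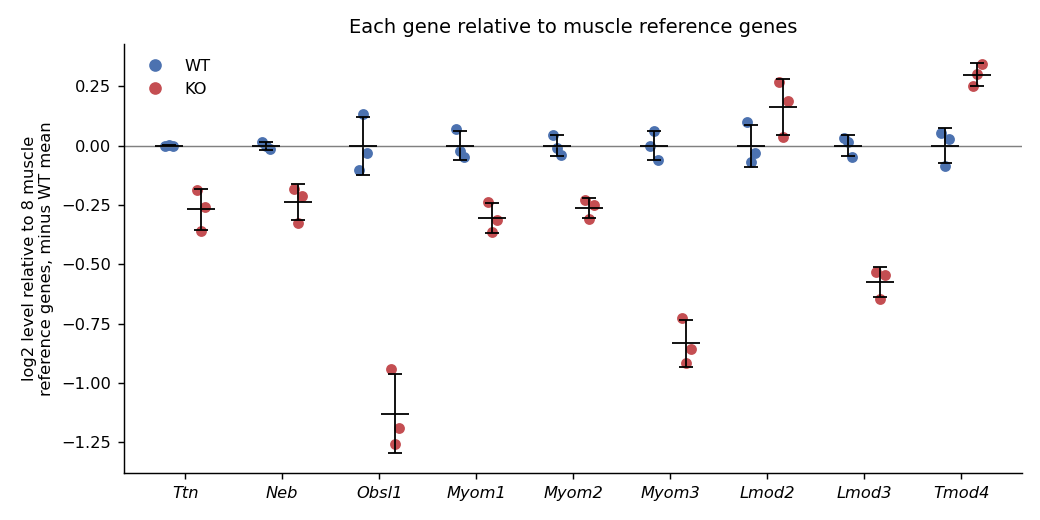
Log2 level of each of the 9 genes relative to the mean of 8 muscle reference genes in the same library, after subtraction of its WT mean (vertical axis), in 3 WT (blue) and 3 KO (red) libraries with the mean (bar) and SD (whiskers). KO means range from -1.13 for *Obsl1* to 0.30 for *Tmod4*, and only *Lmod2* and *Tmod4* have KO means above 0.

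Genes whose products bind titin or serve the M-band were examined as a list of 17. Of these 9 were called higher and 0 lower, against 8.31% and 8.39% of all genes tested, with a median log2 fold change of 0.62. *Tcap*, which encodes the cap that anchors titin in the Z-disc, rose from 17.9 to 19.8 CPM in WT to 56.9 to 74.8 CPM in KO (log2 1.80, adjusted p = 5.00e-07). *Ankrd2*, a stretch-responsive ankyrin repeat protein at the titin spring, rose by 1.69 on the log2 scale, and *Cmya5* by 1.31. The titin-binding ubiquitin ligases of the MuRF family were compared, of which *Trim54* and *Trim55* were picked after their values were seen. *Trim63* (log2 0.83) and *Trim54* (1.06) were called higher, and *Trim55* had 102 to 108 CPM in WT and 94.2 to 107 CPM in KO (log2 -0.019, adjusted p = 0.809). *Smyd1*, a myosin chaperone partner that localizes to the M-band, had a log2 fold change of 0.35 (adjusted p = 5.34e-04), under the fold threshold.

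A list of 20 genes of thin-filament length, capping and assembly held 6 called higher and 1 lower, with a median of 0.39. Of all genes tested, 8.31% were called higher and 8.39% lower. The largest rises were those of *Xirp2* (log2 2.55) and *Nrap* (1.51), which encode actin-binding proteins of myofibrils and their attachment sites. *Nebl*, which encodes nebulette, the small relative of nebulin known from the heart, was the gene called lower. It had 18.6, 24.9 and 17.7 CPM in WT and 2.14, 2.46 and 2.40 CPM in KO (log2 -3.13, adjusted p = 2.08e-07). *Nebl* was highest in WT replicate 2, as was the epidermal gene *Krt10*, with 7631 CPM there and 4637 and 5244 CPM in the other WT libraries, and the part of skin in its level was not tested. *Klhl40*, whose product stabilizes nebulin and leiomodin 3, had a log2 fold change of 0.58 and *Klhl41* of 0.44, both under the fold threshold. *Lmod1*, the leiomodin of smooth muscle, was at 5.65 to 5.96 CPM in WT and 7.93 to 9.22 CPM in KO (log2 0.58), also not called. *Capzb*, which caps the opposite, barbed end at the Z-disc, was at 287 to 297 CPM in WT and 288 to 311 CPM in KO (log2 0.035, adjusted p = 0.572).

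Titin and nebulin transcripts are spliced into many isoforms, which counts per gene do not resolve. Of 5 splicing regulators, 1 was called higher and 0 lower, with a median log2 fold change of 0.42. Over all genes tested, 8.31% were called higher and 8.39% lower, and a list of 5 is too short to compare with these shares. *Rbfox1* rose from 55.3 to 58.7 CPM in WT to 86.3 to 99.2 CPM in KO (log2 0.72).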

How the data were processed

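RNA-seq counts of 3 WT and 3 KO leg muscle libraries were used. Per the methods text and the processing notes, the authors trimmed reads with Trim Galore 0.6.6, mapped them to mm10 with HISAT2 2.2.1 and counted them with featureCounts 2.0.1. They deposited raw counts per gene, not normalized. The annotation, the strand setting and the counting of reads or pairs are not given in the sources used here. Per-sample files and the series table differed in 0 genes. Of 56262 gene IDs, 55227 matched GENCODE M21 by ID without version.

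Counts were tested in R 4.3.3 with edgeR 4.0.16 (filterByExpr, TMM, quasi-likelihood F-test on genotype), with Benjamini-Hochberg adjustment over 22071 genes and thresholds of 0.05 and 1.5-fold. CPM per kb divides by the union of annotated exons, and log2 ratios to the reference genes add 0.1 CPM. DESeq2 1.42.0 and limma 3.58.1 (voom) were alternatives. The tests were run on simulated data beforehand. Libraries of a genotype differed by more than counting noise (mean chi-square per gene 4.85 to 32.9). Nothing says that libraries are separate litters, so p-values measure the spread between these libraries. The 9 genes and all lists were chosen with earlier results of these data known. Named are the 9 genes, fixed partners and paralogues, at most 3 called genes with the largest changes in each other list, the 5 genes with the most similar profile, and genes on which a result turns. One gene of the lists, with a ratio that needs it, is not reported or drawn here, though list counts and the adjustment over 7 tests include it.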

Additional observations from a re-analysis of the deposited data

How the results depend on the processing

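Across 18 alternatives of scaling, filter, tool, covariate and left-out library, direction and call were the same for *Ttn*, *Neb*, *Myom1*, *Myom2*, *Myom3*, *Lmod2* and *Tmod4*, among them DESeq2 and limma-voom. *Lmod3* kept its direction and crossed the fold threshold under 6 alternatives, including the use of only the 4 libraries with Y-linked counts (0.64, chosen after seeing the data). *Obsl1*, never called, turned to -0.048 with library size alone and to -0.0062 with the Y-linked covariate, and leaving out 1 library gave -0.022 (without WT replicate 1) to 0.049. With a fold change over 2, 2 of the 9 genes (*Lmod2* and *Tmod4*) and 774 genes in all were called higher. With no fold threshold, 4838 genes were called higher and 5098 lower. Samples with the same replicate number deviated with correlations of -0.20, -0.13 and 0.047, so no pairing by number was seen. The check cannot exclude a pairing, because each deviation is from a mean of only 3 libraries. A replicate block left 1744 genes called higher, 1777 lower and 6 of the 9 genes higher. The 4 shares and 2 log2 differences kept their sign under every alternative tried for them, which were leaving out each library, no division by exon length or, for the level relative to the reference, medians in place of means (-1.28, against -0.35) and no *Tnnc2* (-0.39), and the replicate block. With 3 libraries per genotype no exact test of a single value can reach 0.05.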

Other observations

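Among 12362 other genes with a mean of at least 5 CPM, the profiles over the 6 libraries most like the mean profile of the 9 genes, by Pearson correlation of log2 CPM, were those of *Ttc9* (r = 0.9998), *Dtna*, *Arhgap36*, *Rbfox1* and *Ldb3* (each r = 0.9996). *Dtna* encodes dystrobrevin alpha of the dystrophin complex and *Ldb3* a Z-disc protein. *Dtna* rose from 42.7 to 94.8 CPM on average and *Ldb3* from 552 to 978 CPM. An r over 0.99 was found for 532 genes. The 6 points share the difference between genotypes, so the correlation is a description only. Of the 9 genes, *Obsl1* had r = 0.19 to the mean profile, and the others had r of 0.991 to 0.9997. Each of the 9 genes is itself part of that mean, so these values are a description only.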
